A study of Mus musculus with 12 samples.

Results

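The interferon regulatory factors (IRFs) and the kinases that act on them were followed through 4 groups of mouse bone-marrow neutrophils. The 9 genes, chosen by name, were Irf1, Irf2, Irf3, Irf5, Irf7, Irf8 and Irf9 and the kinase genes Ikbke, which encodes IKKe, and Tbk1. All 9 were found among the 15986 genes in the files, and all 9 passed the filter on low counts that left 10802 genes for testing. The 4 groups were Rab27a knockout neutrophils with CpG, Rab27a knockout neutrophils left unstimulated, wild-type neutrophils with CpG and wild-type neutrophils left unstimulated, with 3 libraries each. All cells came from C57BL/6 bone marrow, were taken by positive selection for Ly6G and spent 6 h in culture. CpG-B (ODN 1826, given at 5 µM, with vehicle or no treatment in the unstimulated cells) is a synthetic DNA that activates the endosomal receptor TLR9. Rab27a encodes a small GTPase that docks secretory organelles at the plasma membrane. The labels name the knockout only as such and give no allele, sex, age or number of animals.

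IRFs are transcription factors that share an N-terminal DNA-binding domain and bind interferon-stimulated response elements in promoters. TBK1 and IKKe phosphorylate IRF3 and IRF7, which then enter the nucleus and switch on interferon genes. TLR9 uses a different route to IRF7 and IRF5, through the adaptor MyD88 and its IRAK and TRAF6 partners, and IRF9 joins STAT2 to carry the signal of secreted interferon back to the nucleus.

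Promoters are shown first, as sequence context, for Irf1, Irf2 and Irf8, whose windows held a match to the motifs below, and for Ikbke, which held none and had the highest fold change with CpG of the 9 genes in both genotypes. Each line gives 300 bases, 250 before and 50 after the annotated start, 5′ to 3′ on the gene's strand, from RefSeq on build GRCm38.p6. The deposited counts were made on GRCm39, per the submitters' processing notes, so these positions are used for sequence only. Capitals mark every match, on either strand, to 3 motifs: the core of the interferon-stimulated response element (GAAA, any 2 bases, GAAA), the gamma-activated site bound by STAT proteins (TTCNNNGAA) and the NF-kB consensus. No match overlapped another.
Irf1 at chr11:53769764-53770063, plus strand: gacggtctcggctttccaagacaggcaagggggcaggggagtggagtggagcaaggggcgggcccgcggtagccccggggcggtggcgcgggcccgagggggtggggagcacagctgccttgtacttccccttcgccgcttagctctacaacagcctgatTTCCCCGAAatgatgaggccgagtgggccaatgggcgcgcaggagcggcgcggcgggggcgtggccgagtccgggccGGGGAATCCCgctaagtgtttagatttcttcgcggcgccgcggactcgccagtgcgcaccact
Irf2 at chr8:46739495-46739794, plus strand: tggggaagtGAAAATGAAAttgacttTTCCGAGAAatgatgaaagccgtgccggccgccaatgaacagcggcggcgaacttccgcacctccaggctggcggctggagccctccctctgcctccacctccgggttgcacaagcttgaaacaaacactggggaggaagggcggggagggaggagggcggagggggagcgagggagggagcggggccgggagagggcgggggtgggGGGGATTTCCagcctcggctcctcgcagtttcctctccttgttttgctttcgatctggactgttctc
Irf8 at chr8:120736108-120736407, plus strand: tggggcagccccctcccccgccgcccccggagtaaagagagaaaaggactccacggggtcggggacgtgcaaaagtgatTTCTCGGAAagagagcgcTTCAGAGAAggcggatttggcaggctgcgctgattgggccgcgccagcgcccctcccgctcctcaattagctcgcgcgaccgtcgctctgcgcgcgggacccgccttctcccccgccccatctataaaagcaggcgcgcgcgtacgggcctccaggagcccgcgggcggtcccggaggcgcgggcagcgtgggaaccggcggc
Ikbke at chr1:131279514-131279813, minus strand: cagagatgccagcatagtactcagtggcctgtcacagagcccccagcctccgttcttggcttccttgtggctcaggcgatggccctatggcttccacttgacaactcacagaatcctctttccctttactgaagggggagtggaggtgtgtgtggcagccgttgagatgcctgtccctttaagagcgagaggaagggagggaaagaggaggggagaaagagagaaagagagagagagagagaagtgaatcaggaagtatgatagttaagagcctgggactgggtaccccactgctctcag

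The Irf1 window held a gamma-activated site that began 90 bases before the start and an NF-kB match that began 13 bases before it. The Irf2 window held all 3 motifs, at 241 bases (response element), 224 bases (gamma-activated site) and 17 bases (NF-kB) before the start. The Irf8 window printed here held gamma-activated sites 171 and 153 bases before the start. These letter patterns were absent from the Ikbke window and from the windows of Irf3, Irf5, Irf7, Irf9 and Tbk1, whose sequences are not printed. Of 32851 promoters of the same length, 3.44% held the response element core, 8.3% the gamma-activated site and 4.51% the NF-kB consensus. A match is a description of the sequence and no evidence of binding.

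Library totals ran from 10928813 to 15513279 estimated counts. Rab27a had 113, 113 and 96.1 CPM (counts scaled to a common library size, with TMM factors) in knockout libraries 1, 2 and 3 with CpG, and 129, 116 and 94.9 CPM in unstimulated knockout libraries, against 207, 216 and 285 CPM in wild-type libraries with CpG and 231, 251 and 335 CPM in unstimulated wild-type libraries. Every knockout library was below every wild-type library, and Rab27a fell by 1.14 with CpG (edgeR adjusted p = 0.00112) and by 1.26 without it (edgeR adjusted p = 0.000365) on the log2 scale. Of 10 mature neutrophil markers, all were tested and none passed in any of the comparisons, and their summed level was 66700 CPM in knockout CpG library 2 and between 83300 and 107000 CPM in the other libraries. That library had the lowest level of the calprotectin genes S100a8, 5380 CPM against 10300 to 15600 CPM elsewhere, and S100a9, 21500 against 31600 to 45400 CPM. Its low sum mainly reflects S100a9 and S100a8. Ly6g, Retnlg and Camp were also lowest there, whereas Csf3r, Cxcr2 (1860 CPM), Mmp8, Ltf and Ngp (17300 CPM) lay within the range of the other libraries. Values without that library stand beside several results. Summed levels of B cell markers stand beside Irf8. Replicates carry numbers, but no label says that they came from separate animals, so the p-values cover only the spread among these libraries, part of which may be technical. In bulk samples like these, fewer cells of a type and less RNA per cell cannot be told apart.

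A gene is said to rise or fall where the quasi-likelihood test of edgeR, adjusted by Benjamini-Hochberg over all 10802 genes, gave 0.05 or less. Log2 fold changes carry the standard error (SE) of the fit. CpG raised 7 of the 9 genes in knockout cells, where 11.6% of all genes tested were called and 7.57% rose. It raised 3 of the 9 in wild-type cells, where 6.04% of all genes were called and 4.74% rose, and Irf7 missed the threshold there with an edgeR adjusted p of 0.05003. With library number within genotype as a block, 6 of the 9 rose in wild type, and 1824 of all genes were then called in place of 652. Of all genes, 818 rose and 439 fell in the knockout, against 739 and 778 when scaled by library size alone. None of the 9 fell in either genotype. In each genotype the CpG and unstimulated libraries of 7 of the 9 did not overlap, beside 24.2% of all genes in the knockout and 25.7% in wild type. The median log2 change of the 9 was 0.91 in knockout and 0.48 in wild-type cells, beside -0.01 over all genes tested in each.

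**Figure D1:**
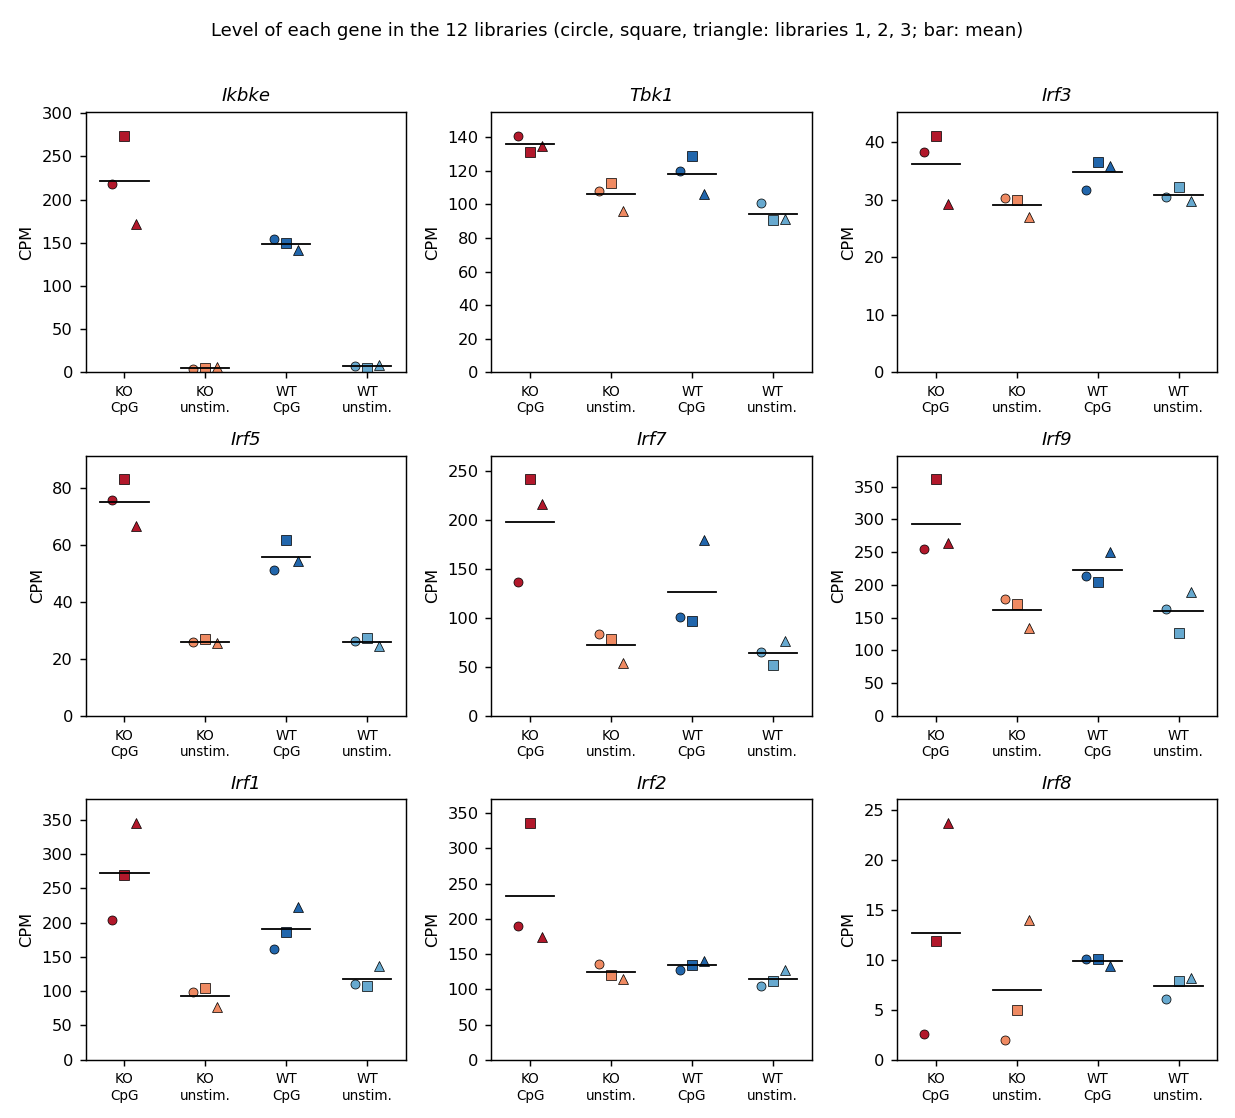
Level of each of the 9 genes in CPM (y axis from 0) in every library, by group on the x axis, with knockout groups left of wild-type groups; each symbol is 1 library and each bar the group mean. Ikbke sat between 172 and 274 CPM in knockout and between 142 and 154 CPM in wild-type cells with CpG, against at most 8.26 CPM in unstimulated cells, while Irf8 in the knockout followed library number more than treatment.

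The kinase genes gave the widest contrast. Ikbke, whose product is the inducible member of the kinase pair, had 218, 274 and 172 CPM in knockout cells with CpG, against 3.78, 4.39 and 6.03 CPM in unstimulated knockout cells. In wild-type cells it had 154, 150 and 142 CPM with CpG, against 7.59, 4.99 and 8.26 CPM unstimulated. Every CpG library was far above every unstimulated library of either genotype. The rise was 46.5-fold in the knockout (log2 5.54, SE 0.24; edgeR adjusted p = 3.71e-09) and 21.4-fold in wild type (log2 4.42, SE 0.22; edgeR adjusted p = 3.02e-08). It held in each of the 12 fits that left out 1 library, with log2 values of 5.35 to 5.72 in the knockout and 4.21 to 4.55 in wild type.

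Tbk1, the constitutively expressed kinase of the pair, moved little. It had 141, 131 and 135 CPM in knockout cells with CpG, against 108, 113 and 96.1 CPM unstimulated. Wild-type cells had 120, 129 and 106 CPM with CpG, against 101, 91 and 91.5 CPM unstimulated. CpG and unstimulated libraries did not overlap in either genotype. The change was 1.29-fold in the knockout (log2 0.36, SE 0.10; edgeR adjusted p = 0.0365), but the call rested on single libraries. It was lost without knockout CpG library 1 or 3, unstimulated knockout library 1, 2 or 3, wild-type CpG library 1 or unstimulated wild-type library 2, with edgeR adjusted p up to 0.192 (unstimulated knockout library 3). In wild type it was 1.25-fold (log2 0.33, SE 0.10; edgeR adjusted p = 0.0954), and the adjusted p was 0.0215 once library number was blocked.

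Per transcript length, the balance of the kinase pair turned over with CpG. The ratio of Ikbke to Tbk1 in TPM (the authors' abundance scaled for transcript length) was 1.55, 2.11 and 1.29 in knockout libraries with CpG, against 0.0371, 0.0388 and 0.0696 in unstimulated knockout libraries. It was 1.31, 1.18 and 1.36 in wild-type libraries with CpG, against 0.08, 0.0561 and 0.0895 unstimulated. Ikbke transcripts outnumbered Tbk1 transcripts in all 6 CpG libraries and in none of the 6 unstimulated libraries.

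Among the IRFs that signal downstream of these kinases and of TLR9, Irf5 gave the steadiest rise and Irf3 did not pass. Irf5, which binds MyD88 and drives inflammatory cytokine genes, had 75.9, 83 and 66.8 CPM in knockout cells with CpG, against 25.8, 27 and 25.5 CPM unstimulated. The wild-type values were 51.2, 61.7 and 54.4 CPM with CpG, against 26.4, 27.5 and 24.4 CPM unstimulated. The 6 unstimulated libraries were nearly equal, and the CpG libraries of the knockout all lay above those of wild type. Irf5 rose 2.88-fold in the knockout (log2 1.53, SE 0.11; edgeR adjusted p = 7.44e-07) and 2.14-fold in wild type (log2 1.10, SE 0.11; edgeR adjusted p = 2.95e-05), and neither call was lost when any 1 library was left out.

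Irf7, the factor that amplifies interferon production once induced, had 136, 241 and 216 CPM in knockout cells with CpG, against 83.3, 78.6 and 54.4 CPM unstimulated. Levels in wild type were 101, 96.4 and 179 CPM with CpG, against 64.8, 51.9 and 76.5 CPM unstimulated. Groups did not overlap within a genotype, but wild-type library 3 was the highest of its group in both conditions. The rise was 2.74-fold in the knockout (log2 1.46, SE 0.27; edgeR adjusted p = 0.00249). In wild type the estimate was 1.95-fold (log2 0.96, SE 0.27; edgeR adjusted p = 0.05003), and the adjusted p was 0.0058 once library number was blocked. Left-out libraries moved that adjusted p between 0.0266 (without knockout CpG library 1) and 0.213 (without wild-type CpG library 3, log2 0.61), and it also passed without wild-type CpG library 2 or unstimulated knockout library 3.

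Irf3, the constitutive substrate of TBK1, had 38.2, 41.1 and 29.2 CPM in knockout cells with CpG, against 30.3, 30 and 26.9 CPM unstimulated. In wild type the values were 31.6, 36.6 and 35.8 CPM with CpG, against 30.4, 32.1 and 29.8 CPM unstimulated. The groups overlapped in both genotypes, and Irf3 did not pass in the knockout (log2 0.32, SE 0.13; edgeR adjusted p = 0.148) or in wild type (log2 0.17, SE 0.13; edgeR adjusted p = 0.609). It passed in the knockout without CpG library 3 (log2 0.44; edgeR adjusted p = 0.0215), and was log2 0.21 without CpG library 2 (edgeR adjusted p = 0.423). It also passed in the knockout once library number was blocked (log2 0.30; edgeR adjusted p = 0.0338). The 95% interval of the log2 change, on 8 degrees of freedom, ran from 0.02 to 0.61 in the knockout and from -0.12 to 0.46 in wild type.

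Irf9, the DNA-binding partner of STAT2, had 255, 361 and 264 CPM in knockout cells with CpG, against 179, 171 and 135 CPM unstimulated. In wild-type cells it had 213, 205 and 250 CPM with CpG, against 164, 126 and 189 CPM unstimulated. Groups did not overlap within a genotype. The rise was 1.82-fold in the knockout (log2 0.86, SE 0.17; edgeR adjusted p = 0.0047), and the adjusted p was 0.0618 without both knockout libraries numbered 2, where the value was log2 0.73. In wild type the estimate was 1.39-fold (log2 0.48, SE 0.17; edgeR adjusted p = 0.155), and the adjusted p was 0.00755 once library number was blocked.

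Irf1 and Irf2 compete for the same sites, the first as an activator induced by interferon-gamma and NF-kB, the second mostly as its antagonist. Irf1 had 203, 269 and 345 CPM in knockout cells with CpG, against 98.4, 104 and 77.3 CPM unstimulated. Wild-type cells had 161, 186 and 223 CPM with CpG, against 111, 108 and 136 CPM unstimulated. No CpG library of a genotype overlapped its unstimulated libraries. Irf1 rose 2.92-fold in the knockout (log2 1.55, SE 0.19; edgeR adjusted p = 9.84e-05), a call held in all 12 fits without 1 library. In wild type it rose 1.61-fold (log2 0.68, SE 0.19; edgeR adjusted p = 0.0482), the weakest of the calls. It was lost without any 1 unstimulated wild-type library, without wild-type CpG library 2 or 3, unstimulated knockout library 1 or 2 or knockout CpG library 2, with edgeR adjusted p up to 0.18 (unstimulated wild-type library 2). Among other settings it was also lost with library sizes alone, relative log expression factors, a filter of 1 CPM or curated transcripts only, with log2 values of 0.65 to 0.67 and edgeR adjusted p of 0.0676, 0.0572, 0.0527 and 0.123 in that order. The call held once library number was blocked (log2 0.68; edgeR adjusted p = 0.0109).

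Irf2 had 190, 336 and 174 CPM in knockout cells with CpG, against 136, 121 and 115 CPM unstimulated. The wild-type values were 128, 135 and 140 CPM with CpG, against 104, 112 and 128 CPM unstimulated. Knockout CpG library 2, which also had the low S100a8 level, was far above the other libraries. Irf2 rose 1.88-fold in the knockout (log2 0.91, SE 0.20; edgeR adjusted p = 0.00741) and by log2 0.55 without that library (edgeR adjusted p = 0.00724). In wild type it did not pass (log2 0.23, SE 0.20; edgeR adjusted p = 0.697).

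**Figure D2:**
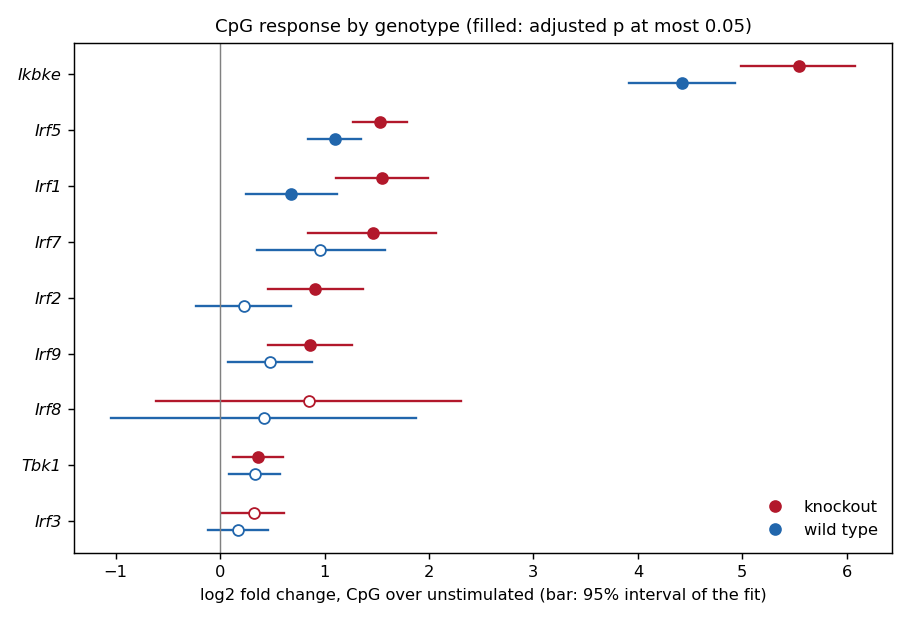
Log2 fold change of CpG over unstimulated cells (x axis) for each gene (y axis), knockout above wild type in each row; points are the edgeR estimates, filled at an adjusted p of at most 0.05, and bars their 95% intervals. All 18 estimates lie above 0, from 0.17 for Irf3 in wild type to 5.54 for Ikbke in the knockout, and 10 of them are filled.

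Irf8, a factor needed for monocytes and dendritic cells that restrains granulocyte production in mice, was the most uneven of the 9 genes between knockout libraries. It had 2.53, 11.9 and 23.7 CPM in knockout libraries 1, 2 and 3 with CpG, against 1.98, 5.01 and 14 CPM in the unstimulated knockout libraries of the same numbers. Levels in wild type were 10.1, 10.1 and 9.42 CPM with CpG, against 6.06, 7.86 and 8.18 CPM unstimulated. Wild-type CpG libraries were all above unstimulated ones, whereas knockout values spanned a wide range in both conditions. Irf8 did not pass in the knockout (log2 0.85, SE 0.63; edgeR adjusted p = 0.503) or in wild type (log2 0.42, SE 0.63; edgeR adjusted p = 0.866). The 4 groups share 1 estimate of spread per gene, so the wild-type SE also carries the knockout spread. Once library number was blocked, the edgeR adjusted p was 0.00323 in the knockout (log2 0.87) and 0.104 in wild type (log2 0.43). In the knockout the CpG library was above the unstimulated library of the same number each time, by 1.28, 2.38 and 1.69 times. Without the block, left-out libraries moved the knockout value between log2 0.03 (without CpG library 3) and 1.82 (without unstimulated library 3).

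The spread of Irf8 between knockout libraries ran alongside B cell markers and some markers of other cell types. The summed level of 5 B cell markers (Cd79a, Cd79b, Ms4a1, Pax5 and Ebf1) was 4.45, 22.3 and 68.7 CPM in knockout libraries 1, 2 and 3 with CpG and 4.63, 20.9 and 66.8 CPM in the unstimulated ones. In wild-type libraries it ran from 18.4 to 26.5 CPM with CpG and from 20.8 to 25.3 CPM unstimulated. None of the 5 markers was at 0 in any library, all 5 were tested, and none passed in any comparison. Behind these sums, Pax5 with CpG was 1.59 to 2.43 times the unstimulated library of the same number in both genotypes. Cd79a went the other way, at 0.377 to 0.583 times, and Cd79b, Ms4a1 and Ebf1 ranged from 0.461 to 2.1 times. Irf4, a lymphocyte IRF that is not among the 9, showed the same order, with 1.66, 5.67 and 17.4 CPM in knockout libraries with CpG, against 0.378, 1.76 and 7.87 CPM unstimulated. In wild-type cells Irf4 had 6.82 to 8.56 CPM with CpG, against 2.97 to 4.78 CPM unstimulated. Pax5, the B cell lineage factor, was the gene most like Irf8 over the 12 libraries (Pearson r 0.972 on log2 CPM), a comparison chosen after the Irf8 values were seen. The monocyte and macrophage markers Ms4a6c, Cx3cr1 and Ccr2 also increased from knockout library 1 to 3 in both conditions. Ms4a6c had 7.68, 13 and 30.3 CPM with CpG and 0.85, 5.18 and 12.6 CPM unstimulated. Csf1r, Ly6c2, Adgre1 and Fcgr1 of that list did not. The dendritic cell markers Tcf4, Flt3, Siglech, Ccr9 and Clec9a (at most 0.86 CPM in knockout libraries) did, whereas Runx2, Itgax and Zbtb46 did not. Bst2 increased in this order with CpG only. The part of B cells or of these other cells in the Irf8 values was not tested.

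**Figure D3:**
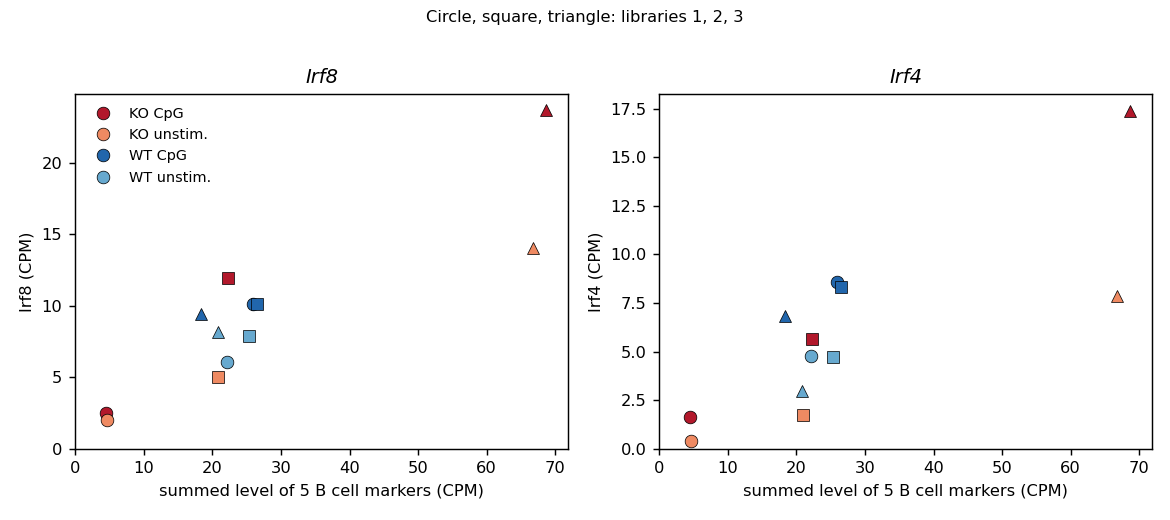
Level of Irf8 (left) and Irf4 (right) in CPM on the y axis against the summed CPM of 5 B cell markers on the x axis, each symbol 1 library and the shape its number. Knockout libraries 1 lie at 4.45 (with CpG) and 4.63 CPM of B cell markers and knockout libraries 3 at 68.7 (with CpG) and 66.8 CPM, with wild-type libraries between them.

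Markers of other cell types were read beside these genes. Of 7 monocyte and macrophage markers, 2 rose with CpG in each genotype, the growth factor receptor gene Csf1r and the macrophage gene Adgre1. Csf1r had 916, 945 and 693 CPM in knockout cells with CpG, against 160, 164 and 184 CPM unstimulated, and 537, 582 and 530 CPM in wild-type cells with CpG, against 183, 204 and 203 CPM unstimulated. It was the 1 marker of the 7 that was higher in knockout than wild-type cells with CpG (log2 0.63, SE 0.12; edgeR adjusted p = 0.00986). The summed level of the 7 markers ran from 1220 to 1650 CPM in knockout CpG libraries, against 516 to 551 CPM unstimulated, and from 1170 to 1190 CPM in wild-type CpG libraries, against 685 to 696 CPM unstimulated. The other 5 of the 7 did not pass with CpG in either genotype, and in the CpG libraries they ran from 323 to 534 CPM (Ly6c2), 7.68 to 30.3 CPM (Ms4a6c), 3.66 to 9.15 CPM (Cx3cr1), 4.06 to 11.7 CPM (Ccr2) and 0.523 to 3.52 CPM (Fcgr1). Unstimulated libraries had 283 to 456 CPM (Ly6c2), 0.85 to 12.6 CPM (Ms4a6c), 0.661 to 5.8 CPM (Cx3cr1), 7.08 to 24.5 CPM (Ccr2) and 0.527 to 1.76 CPM (Fcgr1). Siglech, which marks plasmacytoid dendritic cells, had at most 0.841 CPM in any CpG library. Unstimulated, it had 0.378, 0.439 and 4.36 CPM in knockout libraries 1, 2 and 3 and 1.28 to 1.54 CPM in wild-type libraries. Of 5 tested markers of those cells, Bst2, an interferon-induced gene, rose in the knockout and Runx2 fell in both genotypes. Of 4 conventional dendritic cell markers Zbtb46 rose in the knockout, and of 3 T and NK cell markers Cd8a did. The summed levels were 40.9 to 78 CPM (plasmacytoid), 86.3 to 137 CPM (conventional dendritic) and 2.47 to 9.07 CPM (T and NK) over the 12 libraries. Most of the conventional sum was Itgax (79.9 to 134 CPM). Most of the plasmacytoid sum was Runx2 (21.2 to 57.2 CPM) and Tcf4 (7.33 to 19.2 CPM). Bst2 had 2.64 to 24.4 CPM and was above both of these in knockout CpG library 3. The conventional sum thus mainly follows Itgax, and the plasmacytoid sum follows Runx2, Tcf4 and, with CpG, Bst2. The part of these cells in the rises of Irf5, Irf7 and Ikbke was not tested.

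Without CpG, no IRF or kinase gene separated the genotypes by the test. None of the 9 passed for knockout against wild type in unstimulated cells, where 4.75% of all genes were called, and DESeq2 called none of the 9 either. An unadjusted p under 0.05 in edgeR was found for 1 of the 9 (Ikbke), beside 17.6% of all genes. The median log2 difference of the 9 was 0.00. The largest estimates in size were those of Ikbke (log2 -0.54, SE 0.24; edgeR adjusted p = 0.261) and Irf1 (log2 -0.34, SE 0.19; edgeR adjusted p = 0.388). For Irf1 all 3 knockout libraries lay below all 3 wild-type libraries, and for the other 8 genes the groups overlapped. The groups of 25% of all genes did not overlap in this comparison. For Irf5 the 95% interval of the log2 difference was -0.26 to 0.26.

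With CpG, the estimates of all 9 genes were higher in knockout than in wild-type cells, and 2 passed. Of all genes 3.92% were called and 1.7% were higher, and the median log2 difference of the 9 was 0.43, beside 0.00 over all genes. Irf2 was 1.74-fold higher (log2 0.80, SE 0.20; edgeR adjusted p = 0.0395) and Irf5 1.35-fold higher (log2 0.43, SE 0.11; edgeR adjusted p = 0.0408). The Irf2 difference was log2 0.47 without knockout CpG library 2 (edgeR adjusted p = 0.0431) and log2 0.44 without both libraries of that number (edgeR adjusted p = 0.133). The Irf2 call was lost without wild-type CpG library 1, 2 or 3 or unstimulated knockout library 2. The Irf5 call was lost without wild-type CpG library 1 or 3, knockout CpG library 1 or 2 or any 1 unstimulated knockout library, with a value of log2 0.38 without knockout CpG library 2. Leaving out wild-type CpG library 1 gave the highest edgeR adjusted p for both, 0.172 for Irf2 and 0.236 for Irf5. Neither passed in a fit of only the CpG libraries (edgeR adjusted p = 0.143 for Irf2 and 0.185 for Irf5).

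The 7 other genes did not pass in CpG-treated cells. Ikbke was 1.49-fold higher in the knockout (log2 0.58, SE 0.18; edgeR adjusted p = 0.108), with all 3 knockout libraries above the wild-type ones and an adjusted p of 0.0361 in DESeq2 and of 0.0269 in edgeR without knockout CpG library 3 (log2 0.75). Without knockout CpG library 2 it was log2 0.42 (edgeR adjusted p = 0.32). Irf9 (log2 0.40, and 0.25 without knockout CpG library 2) and Tbk1 also had groups that did not overlap, so that 5 of the 9 did, beside 20.4% of all genes in either direction. Irf7 (log2 0.66, SE 0.26; edgeR adjusted p = 0.202) and Irf1 (log2 0.52, SE 0.19; edgeR adjusted p = 0.157) overlapped, and passed without wild-type CpG library 3 (Irf7, 0.0435) and without knockout CpG library 1 (Irf1, 0.0445). An unadjusted p under 0.05 in edgeR was found for 6 of the 9, beside 18.1% of all genes. Irf8 had a log2 difference of 0.37 (SE 0.62), and -0.41 without knockout CpG library 3.

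Whether CpG acted more strongly in knockout cells is the question of the interaction term, the difference between the CpG effects. No gene of 10802 passed in the reported edgeR fit (0% called), 365 (3.38%) had an unadjusted p under 0.05, and DESeq2 called 3 genes, none of them among the 9. With library number within genotype as a block, edgeR did call interactions, and their number stands with the other settings below. Of the 9, 4 had an unadjusted p under 0.05 in edgeR, all with an adjusted p of 1. These were Ikbke (log2 1.12, SE 0.30; unadjusted p = 0.00258 in edgeR), Irf1 (0.86, SE 0.26; unadjusted p = 0.00608 in edgeR), Irf5 (0.43, SE 0.16; unadjusted p = 0.0153 in edgeR) and Irf2 (0.69, SE 0.28; unadjusted p = 0.0282 in edgeR), the last with 0.34 without knockout CpG library 2. All 9 estimates were positive, with a median of 0.44 beside 0.01 over all genes, and none passed. The 95% interval for Tbk1 was -0.30 to 0.38 and that for Irf8 -1.63 to 2.50.

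The order of levels between genes was read per transcript length, as the sum of the authors' TPM over the transcripts of each gene. In unstimulated wild-type cells Irf9 was highest at 93.5 ± 15.6 TPM (SD, n = 3), followed by Irf1 (81 ± 7.53), Irf2 (65.8 ± 5.24), Irf7 (53.2 ± 8.37), Tbk1 (43.9 ± 3.36), Irf3 (23.7 ± 2.13), Irf5 (16.2 ± 1.52), Irf8 (3.66 ± 0.539) and Ikbke (3.29 ± 0.734). Neighbours in this order whose 3 values overlapped were Irf9 and Irf1, Irf2 and Irf7, Irf7 and Tbk1, and Irf8 and Ikbke. Unstimulated knockout cells had the same 4 genes at the bottom, with Irf8 at 3.86 ± 3.63 TPM and Ikbke last at 2.55 ± 0.883 TPM.

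With CpG, Ikbke moved to the fifth place in both genotypes, above Tbk1 in the order, although its 3 values overlapped those of Tbk1 in wild type. It had 103 ± 22.4 TPM in knockout and 70.3 ± 6.89 TPM in wild-type cells with CpG. The top of the order in CpG-treated knockout cells was Irf1 at 190 ± 62.2 TPM, Irf9 at 173 ± 39 TPM, Irf7 at 167 ± 55.5 TPM and Irf2 at 134 ± 52.9 TPM, and each overlapped its neighbour. Irf8 was last in both CpG groups, at 6.55 ± 5.73 TPM in knockout and 4.92 ± 0.47 TPM in wild-type cells.

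**Figure D4:**
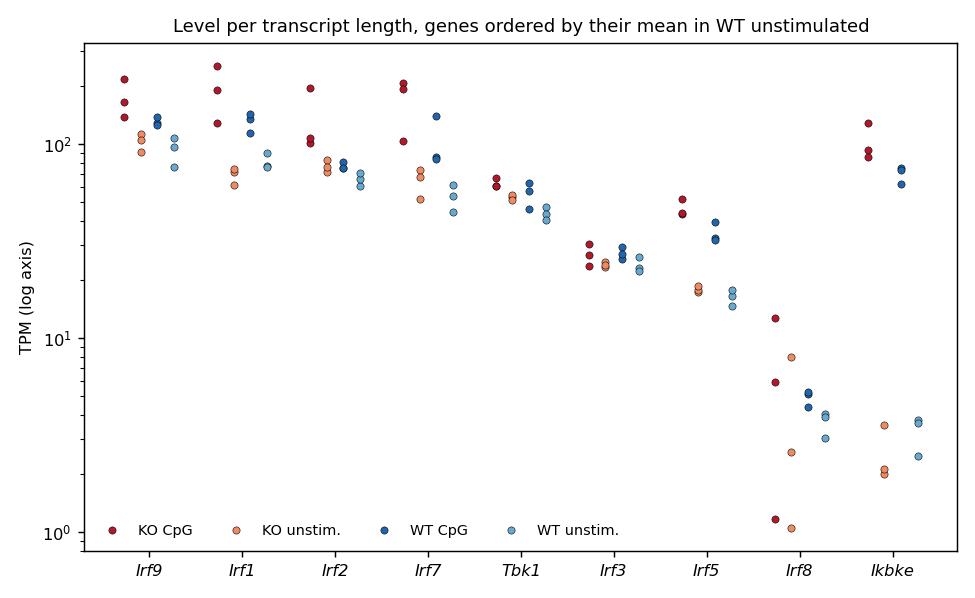
TPM of each gene on a log axis (y), genes ordered on the x axis by their mean in unstimulated wild-type cells, each point 1 library and the colour its group. Ikbke lies at 3.79 TPM or below in all unstimulated libraries and at 62.4 TPM or above in all CpG libraries.

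The transcripts behind these sums differed in how well they were resolved. Tbk1 had 1 transcript in the files, and a single curated RefSeq transcript held 95 to 99.4% of Irf1, 94.4 to 98.2% of Irf2 and 96.9 to 100% of Irf8 counts in the 12 libraries. Irf7 was split, with 46 to 59.8% of counts on its leading curated transcript and 19.4 to 37.8% on the next. The leading transcript of Irf9 held 55.7 to 79% and that of Irf5 61.1 to 82.5%. Irf3 had 42.5 to 75.9% of its counts on 1 curated transcript and the rest on predicted ones. The curated Ikbke transcript held a mean of 72.2% in knockout CpG, 66.9% in unstimulated knockout, 69.3% in wild-type CpG and 82.8% in unstimulated wild-type libraries. Its share ran from 37.8% in unstimulated knockout library 3 to 91.1% in unstimulated knockout library 2, where Ikbke had only 72 and 50 counts. These shares are the estimates of the authors' software for overlapping sequences and were not tested.

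Genes with the most similar profile over the 12 libraries were named for the 7 genes called in any comparison, out of 7913 candidates with at least 5 CPM. Ikbke was closest to Acp2, Rnf19b and Il2rg (Pearson r 0.997, 0.997 and 0.996 on log2 CPM). Irf5 was closest to N4bp1, Csf1r and Marcksl1 (0.992, 0.99 and 0.99), and Irf7 to the interferon-induced genes Ifit3b, Rnf114 and Slfn8 (0.99, 0.986 and 0.984). Irf1 was closest to the interferon-inducible GTPase genes Irgm1, Gbp2 and Gm12250 (0.981, 0.975 and 0.975). Irf9 was closest to Adar, Slfn2 and Tapbp (0.978, 0.973 and 0.967). Irf2 was closest to Wasf2, Zc3h18 and Zbtb7a (0.97, 0.969 and 0.965), and Tbk1 to Rap2c, Lrch3 and Gabpb1 (0.969, 0.952 and 0.951). The libraries share the 4 groups and their depth, so these values describe a profile and carry no test.

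The genes around the kinases rose in part. Of 10 tested adaptors and activators of TBK1 and IKKe, 5 rose with CpG in knockout and 5 in wild-type cells, and none fell (median log2 change 0.30 in the knockout and 0.29 in wild type). Of all genes tested, 7.57% rose in the knockout and 4.74% in wild type, with a median of -0.01 in each. This list and those below were chosen with earlier results of these data known. Traf3, the ubiquitin ligase that links MyD88 to the kinases, rose by log2 1.49 (SE 0.13) in the knockout and 1.09 (SE 0.13) in wild type. With only curated transcripts counted, its estimates were higher, at log2 4.63 in the knockout and 1.82 in wild type, and neither passed (edgeR adjusted p = 0.0516 and 0.564). Tank, a scaffold of the kinase complex, rose by log2 1.07 (SE 0.12) in the knockout and 0.88 (SE 0.12) in wild type. Cgas, the cytosolic DNA sensor, rose by log2 1.47 (SE 0.20) in the knockout and 0.84 (SE 0.21) in wild type, and Ifih1, a double-stranded RNA sensor, by log2 1.88 (SE 0.33) in the knockout and 1.35 (SE 0.33) in wild type. The Ifih1 call in wild type was lost without unstimulated wild-type library 1 or 2, or CpG library 3, with edgeR adjusted p between 0.0846 and 0.119. With CpG, Cgas was higher in the knockout than in wild type (log2 0.80, SE 0.20; edgeR adjusted p = 0.0383), a call lost in 7 of the 12 fits without 1 library, with adjusted p up to 0.204 (wild-type CpG library 1). Without knockout CpG library 2 the Cgas difference was log2 0.64 (edgeR adjusted p = 0.148).

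On the TLR9 side, 4 of 9 genes rose in the knockout and 3 of 9 in wild type, none fell, and none passed between genotypes (median log2 change 0.35 in the knockout and 0.05 in wild type). For this list and the next, the share of all genes that rose was 7.57% in the knockout and 4.74% in wild type. Myd88, the adaptor, rose by log2 1.19 (SE 0.11) in the knockout and 0.75 (SE 0.11) in wild type. Tlr9 rose in both genotypes (log2 1.68 and 1.42, SE 0.23 each). Of 7 partners of IRF9 and interferon receptor genes, 4 rose in each genotype (median log2 change 0.49 in the knockout and 0.37 in wild type). Tyk2, a kinase of the interferon receptor, rose by log2 2.17 (SE 0.17) in the knockout and 1.48 (SE 0.17) in wild type, and Stat2 by 1.49 (SE 0.25) in the knockout and 0.98 (SE 0.24) in wild type. Ifnar1, a subunit of the type I interferon receptor, rose by log2 0.95 in the knockout and 0.89 in wild type (SE 0.10 each). The Stat2 call in wild type was lost without unstimulated wild-type library 1 or 2 or CpG library 2 or 3, with edgeR adjusted p up to 0.129. None of 3 IRF2-binding protein genes passed in any comparison.

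The listed interferon genes with a row under their symbol were hardly counted. Ifna1, Ifna2, Ifna4 and Ifnl3 had no such row and were not analysed here. Ifnb1 had 1 count in the knockout CpG libraries together, 0 in unstimulated knockout, 0 in wild-type CpG and 1 in unstimulated wild-type libraries. The interferon-lambda gene Ifnl2 had 8 counts in knockout CpG libraries, 1 in wild-type CpG libraries and 0 in both unstimulated groups. Ifng had 5 counts in knockout CpG libraries, all in library 3, 1 in unstimulated knockout, 1 in wild-type CpG and 0 in unstimulated wild-type libraries. Ifna5 had 1 count in all 12 libraries. None of these 4 genes was tested, and no change in them was detectable at this depth.

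Of 20 tested genes known as IRF targets, 17 rose in the knockout and 14 in wild type, none fell, and the median log2 change was 2.35 in the knockout and 1.55 in wild type. Beside this, 7.57% of all genes rose in the knockout and 4.74% in wild type, with a median of -0.01 in each. With CpG, 1.7% of all genes were higher in knockout than in wild-type cells. The list was chosen with earlier results of these data known. Cxcl10, an interferon-inducible chemokine gene, had 55.1, 112 and 175 CPM in knockout cells with CpG, against 0.378, 0.879 and 1.09 CPM unstimulated, and 15.9, 65.8 and 36.8 CPM in wild-type cells with CpG, against 0.512, 0.881 and 0.882 CPM unstimulated. It rose by log2 7.15 (SE 0.65) in the knockout and 5.67 (SE 0.65) in wild type. Gbp5, a guanylate-binding protein gene, had 9.86, 25.3 and 37.7 CPM in knockout and 2.55, 9.79 and 5.62 CPM in wild-type cells with CpG. Il12b, an IL-12 subunit gene and IRF target, had 30.4, 32.8 and 40.6 CPM in knockout and 4.58, 14.1 and 7.17 CPM in wild-type cells with CpG, and no overlap between genotypes. With CpG, Il12b (log2 2.00, SE 0.33; edgeR adjusted p = 0.00252), Gbp5 (2.02, SE 0.48; edgeR adjusted p = 0.0323) and the NADPH oxidase gene Cybb (0.58, SE 0.13; edgeR adjusted p = 0.0189) were the 3 of 20 that were higher in knockout cells. The Gbp5 call was lost without wild-type CpG library 1 or 3 or knockout CpG library 2 or 3, with edgeR adjusted p up to 0.141, and the Cybb call without wild-type CpG library 1 (edgeR adjusted p = 0.146).

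Of 10 genes listed as negative regulators of IRF activation, 6 rose in the knockout and 4 in wild type, and none fell (median log2 change 0.60 in the knockout and 0.44 in wild type). The share of all genes that rose was 7.57% in the knockout and 4.74% in wild type. The ubiquitin-editing gene Tnfaip3 rose by log2 2.99 (SE 0.18) in the knockout and 2.78 (SE 0.18) in wild type. Its partner Tnip1 rose by 2.70 (SE 0.16) and 1.95 (SE 0.15), and was the only one of the 10 that was higher in knockout than wild-type cells with CpG (log2 0.89, SE 0.15; edgeR adjusted p = 0.00235). With curated transcripts only, neither that Tnip1 difference (log2 0.72; edgeR adjusted p = 0.382) nor the Cybb difference (log2 0.42; edgeR adjusted p = 0.496) passed. Usp18, which shuts off interferon receptor signalling, rose by 2.57 (SE 0.37) and 1.67 (SE 0.36). Its wild-type call was lost without unstimulated library 2 (edgeR adjusted p = 0.0673) or CpG library 3 (0.0527).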

How the data were processed

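Neutrophil RNA was measured in 12 libraries. The authors deposited estimated counts per RefSeq transcript, TPM and FPKM, per the file headers. The deposited estimated counts and TPM entered the results, and the FPKM did not. The submitters' processing notes name Bowtie2, RSEM 1.2.28 and GRCm39. No label names a filter. Of the deposited estimated counts, 47.4% were not whole.

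Counts were summed per NCBI gene and rounded. Of 15986 genes, 15883 matched a symbol in the RefSeq annotation of GRCm38.p6. Genes were kept by filterByExpr (count 10, total 15), scaled by TMM (factors 0.9 to 1.09) and fitted in edgeR 4.0.16 (R 4.3.3) with 1 mean per group and 8 residual degrees of freedom (common dispersion 0.0293).

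The members, lists and tests were chosen with earlier results of these data known. Named genes were the 9, Rab27a, up to 3 called genes per list and comparison, few-count list genes, and the 3 most similar genes per called member. Genes of the lists with no row under their symbol (Rigi, Ifna1, Ifna2, Ifna4, Ifnl3, Mx1, Ighm) were not analysed here. A few other genes of the lists are not reported here and were left out of the list counts and sums.

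Same-numbered wild-type libraries deviated together (r = 0.28, 0.41 and 0.44, threshold 0.1), so values blocked by number within genotype stand beside wild-type calls they change and beside Irf1. Same-numbered knockout libraries had r = 0.62, 0.09 and 0.68, with those of number 2 below the threshold, and were not taken as paired. Blocked knockout values stand beside Irf3 and Irf8, which in fits of all 12 libraries passed only with the block. Alternatives were DESeq2 1.42.0, other scalings, filters and blocks, curated transcripts only, and leaving out libraries. Leaving out both knockout libraries of a number was added after the data were seen.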

Additional observations from a re-analysis of the deposited data

How the results depend on the processing

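Over the reported fit and 25 other settings, none of the 468 CpG estimates of the 9 genes was at or below 0. With library number within genotype as replicate block: 6 of the 9 called with CpG in wild type (Irf7, Irf9 and Tbk1 added), and all genes called with CpG numbered 2591 in the knockout and 1824 in wild type, with 13 interactions. In the knockout this block also called Irf3 (adjusted p = 0.0338) and Irf8 (0.00323). All 12 libraries correlated best with their own number, a hint from the data and not from the design. A knockout pair is its CpG and unstimulated library of 1 number. The cause of these changes was not tested.

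With CpG, knockout against wild type, the called members numbered 1 with library sizes alone, with no filter and with number as replicate block, 0 with only the libraries compared, 0 with curated transcripts and 0 without knockout pair 2. They ran from 0 (without wild-type CpG library 1 or unstimulated knockout library 2) to 3 without 1 library. With CpG the members called ran from 6 to 7 in the knockout and from 2 to 4 in wild type without 1 library. All genes called between genotypes with CpG were 734 in DESeq2, 253 with only the libraries compared, 227 with curated transcripts, 250 without knockout pair 2, 824 without knockout pair 3 and 234 to 699 without 1 library. Between unstimulated genotypes they were 782 in DESeq2, 283 with curated transcripts, 341 without knockout pair 1, 300 without knockout pair 2 and 278 to 604 without 1 library. For CpG in the knockout they were 600 without knockout pair 2 and 818 to 1347 without 1 library. For CpG in wild type they were 425 with curated transcripts and 425 to 758 without 1 library. DESeq2 gave 3 interactions.

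Among the 9 genes, every estimate that changed sign was uncalled in both fits. Unstimulated, knockout against wild type, Irf5 was 0.02 (relative log expression, DESeq2, without knockout pair 3), 0.03 (1 CPM filter, curated transcripts, without knockout pair 1), 0.01 (only the libraries compared), 0.00 (number block) and -0.04 to 0.07 without 1 library. There Irf3 was 0.15 with curated transcripts and -0.11 to 0.01 without 1 library. Irf8 was 0.40 without knockout pair 1, 0.13 without knockout pair 2 and -1.03 to 0.37 without 1 library. Irf9 was -0.04 without knockout pair 1, -0.03 without knockout pair 2 and -0.10 to 0.16 without 1 library. Irf4 was 0.25 without knockout pair 1, 0.01 without knockout pair 2 and -1.90 to 0.22 without 1 library. With CpG, Irf3 was -0.02 with library sizes alone, -0.04 without knockout pair 2 and -0.01 to 0.21 without 1 library. Irf8 was 0.00 with number as a block, -0.41 without knockout pair 3 and -0.41 to 0.85 without 1 library. Irf4 was -0.36 with number as a block, -1.06 without knockout pair 3 and -1.06 to 0.54 without 1 library. The Tbk1 interaction was -0.03 with library sizes alone, -0.02 without knockout pair 3 and -0.07 to 0.12 without 1 library. Without 1 library the interactions of Irf8, Irf4 and Rab27a ran from -0.37 to 1.40, -0.80 to 1.96 and -0.03 to 0.29, and the CpG effect on Rab27a in the knockout from -0.23 to 0.03.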
